A study of Mus musculus with 15 samples.

Results

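The subject is 10 genes of the sperm tail and of the joint between sperm head and tail, followed by RNA sequencing through whole mouse testes. They are Akap4, Akap3, Ropn1 and Fsip2 of the fibrous sheath, Odf1 and Odf2 of the outer dense fibres, Sun5, Spata6 and Hook1 of the head-tail coupling and the manchette, and Spag6 of the central pair. They were chosen by symbol, with earlier results of these data known. Each symbol matched 1 of the 36118 gene identifiers in the table. All 10 passed the filter on low values (a mean of at least 10 normalised counts), as did 17896 identifiers in all. The 15 libraries came from testes of C57/BL6 mice in 5 groups of 3, which the titles call MTX, HMS-I1, AA, TSA and Control. The labels spell out none of these abbreviations and state no dose, age or length of exposure. In the treatment field, HMS-I2 and HMS-I3 appear beside HMS-I1 for this group, so this group of 3 rests on the titles alone. No label states that replicates came from separate animals, and the p-values therefore cover only the variation among these samples, part of which may be technical.

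The sperm tail is built in the haploid spermatid around a central bundle of microtubules, the axoneme. Outer dense fibres run along the axoneme, and in the principal piece a fibrous sheath of AKAP3, AKAP4 and their partners encloses it and anchors protein kinase A. A coupling apparatus at the neck ties the tail to the nuclear envelope, and the manchette, a transient skirt of microtubules, shapes the head and carries tail proteins to their place. Loss of several of these genes in mice is known for immotile, stiff-tailed or headless sperm.

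The libraries did not form a uniform set. The mean log2 level of 60 histone genes was 7.79 to 8.82 in 6 libraries (replicate 1 of each treatment and Control replicates 1 and 2) and 2.95 to 3.86 in the other 9. The 6 are called the first set here and the 9 the second set. The share of normalised counts from 13 mitochondrially encoded genes lay between 1.08% and 1.40% in those 6 libraries and between 3.54% and 13.7% in those 9. No label names a batch, and the sets were defined from these values. The tissue label was checked on germ cell and somatic marker genes: Prm1 (a protamine of the condensing spermatid nucleus) ranged over the 15 libraries between 26506 and 180451 normalised counts. None of the 21 spermatid, 15 spermatocyte, 11 spermatogonial or 11 Sertoli cell marker genes was at 0 in any library.

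Promoter windows are shown first for the 5 members whose values in TSA replicates 2 and 3 lay below all other libraries (Akap3, Sun5, Ropn1, Spag6 and Spata6). Those of Akap4, the sheath partner of Akap3, and of Spag6l, the paralogue of Spag6, which did not, stand beside them. Each window runs 5′ to 3′ on the strand of the gene through 250 bases before and 50 bases after the annotated start, from RefSeq on build GRCm38.p6. Akap3 is at chr6:126852848-126853147 on the plus strand and the first window of Akap4 at chrX:7067265-7067564 on the plus strand. Akap4 has a second window at chrX:7067960-7068259 on the plus strand, which is not shown. Sun5 is at chr2:153871035-153871334 on the minus strand, Ropn1 at chr16:34650961-34651260 on the plus strand, and Spag6 at chr2:18698772-18699071 on the plus strand. Spata6 has windows at chr4:111719760-111720059 and chr4:111777347-111777646, both on the plus strand. The window of Spag6l is at chr16:16829314-16829613 on the minus strand. Capitals mark every match to the 8 letters TGANGTCA, where N is any base. TGACGTCA is the consensus of the cyclic AMP response element, and the looser letters were picked after the windows had been read. CREM, a factor that binds such elements, is a well-known activator of genes in round spermatids.
Akap3: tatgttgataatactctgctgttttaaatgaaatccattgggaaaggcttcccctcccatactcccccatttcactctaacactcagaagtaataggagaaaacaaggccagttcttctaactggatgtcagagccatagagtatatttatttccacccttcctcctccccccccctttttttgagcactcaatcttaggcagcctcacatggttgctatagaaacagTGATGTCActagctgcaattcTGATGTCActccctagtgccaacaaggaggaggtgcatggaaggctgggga
Akap4: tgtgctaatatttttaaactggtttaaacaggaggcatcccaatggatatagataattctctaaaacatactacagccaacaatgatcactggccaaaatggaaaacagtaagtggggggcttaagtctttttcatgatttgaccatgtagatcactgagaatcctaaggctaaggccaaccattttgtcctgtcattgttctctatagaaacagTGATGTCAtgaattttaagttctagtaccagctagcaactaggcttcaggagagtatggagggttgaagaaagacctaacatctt
Sun5: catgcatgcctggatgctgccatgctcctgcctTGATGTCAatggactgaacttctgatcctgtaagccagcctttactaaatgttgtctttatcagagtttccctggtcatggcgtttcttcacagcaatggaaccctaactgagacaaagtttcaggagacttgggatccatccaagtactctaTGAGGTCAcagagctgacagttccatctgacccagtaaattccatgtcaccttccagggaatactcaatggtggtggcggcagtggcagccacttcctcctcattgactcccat
Ropn1: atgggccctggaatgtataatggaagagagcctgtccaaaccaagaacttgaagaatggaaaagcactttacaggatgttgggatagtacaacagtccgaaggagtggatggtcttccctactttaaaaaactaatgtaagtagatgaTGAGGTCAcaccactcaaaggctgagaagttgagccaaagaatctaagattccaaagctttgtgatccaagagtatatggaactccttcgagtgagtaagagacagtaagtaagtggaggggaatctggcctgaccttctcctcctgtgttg
Spag6: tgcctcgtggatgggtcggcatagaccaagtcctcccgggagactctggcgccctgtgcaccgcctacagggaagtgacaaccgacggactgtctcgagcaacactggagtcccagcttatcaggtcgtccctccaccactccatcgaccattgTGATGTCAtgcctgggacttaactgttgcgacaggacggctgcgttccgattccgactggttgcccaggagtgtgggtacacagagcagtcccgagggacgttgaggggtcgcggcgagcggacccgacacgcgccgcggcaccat
Spata6 window 1: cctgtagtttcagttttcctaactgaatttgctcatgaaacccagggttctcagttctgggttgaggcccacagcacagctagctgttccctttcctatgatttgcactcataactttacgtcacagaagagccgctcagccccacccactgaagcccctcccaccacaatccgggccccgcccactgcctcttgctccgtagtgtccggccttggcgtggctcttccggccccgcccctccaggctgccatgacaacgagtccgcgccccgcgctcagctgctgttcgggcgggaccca
Spata6 window 2: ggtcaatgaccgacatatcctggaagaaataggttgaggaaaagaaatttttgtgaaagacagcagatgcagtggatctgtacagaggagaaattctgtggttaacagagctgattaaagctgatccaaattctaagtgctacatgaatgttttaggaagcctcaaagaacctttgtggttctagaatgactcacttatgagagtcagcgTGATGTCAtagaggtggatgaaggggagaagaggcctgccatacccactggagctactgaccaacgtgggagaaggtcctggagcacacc
Spag6l: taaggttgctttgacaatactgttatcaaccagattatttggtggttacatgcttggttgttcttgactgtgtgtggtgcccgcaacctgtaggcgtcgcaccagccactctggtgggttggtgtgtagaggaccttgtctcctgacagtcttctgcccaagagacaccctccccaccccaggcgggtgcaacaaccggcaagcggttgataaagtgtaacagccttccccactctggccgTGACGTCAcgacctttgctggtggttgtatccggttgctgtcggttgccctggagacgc

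A match to TGANGTCA on either strand was found in 6 of the 9 members with a window (Akap3, Akap4, Sun5, Ropn1, Spag6 and Spata6) and in none of the windows of Odf2, Fsip2 and Hook1. Odf1 had no window. The second window of Akap4 and the first of Spata6 held no match. Every match in the windows of the members and of Spag6l read in the direction of the gene; a match on both strands at the same place was counted once. Of 32851 mouse windows of the same length, 8.83% held a match, or 10.02% of 27025 genes. The letters were picked after the member windows had been read, so 6 of 9 beside these shares is no test of enrichment. The form TGATGTCA was held by 3.62% of windows and TGACGTCA by 1.79%. Akap3 had TGATGTCA at both 22 bases and 1 base before the start, the first of the Akap4 windows at 35 bases, Spag6 at 96 bases and the second of the Spata6 windows at 40 bases. Sun5 had TGATGTCA at 217 bases and TGAGGTCA at 64 bases, and Ropn1 had TGAGGTCA at 102 bases. Spag6l had TGACGTCA at 9 bases, and no window of a member held this consensus form. Akap3 and Akap4 also shared the unbroken 20 bases CTATAGAAACAGTGATGTCA, which begin 34 bases before the start of Akap3 and 47 bases before that of the first Akap4 window. Those 20 bases were found in 2 of the 32851 windows, and the next longest stretch shared by a pair of member windows was 14 bases. A match describes letters only and shows no binding. Akap4 and Spag6l held matches too. Akap4 had its lowest level of the 15 libraries in TSA replicate 2 and lay among the others in TSA replicate 3. Spag6l lay among the others in both. A link between matches and levels was not tested.

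The members ranged widely in abundance. By mean normalised count, Odf2 ranked 14 and Akap4 ranked 24 among the 17896 genes, followed by Odf1 at 88, Akap3 at 97, Fsip2 at 100, Spata6 at 105, Hook1 at 129, Ropn1 at 507, Spag6 at 2063 and Sun5 at 3728. Per kilobase of the longest annotated coding transcript, the order in Control testes was headed by Odf1 (27264 ± 5254 normalised counts per kilobase, SD, n = 3), Odf2 (24810 ± 2035) and Akap4 (18983 ± 1501). Odf1 and Odf2 did not differ beyond their spread. Ropn1 (13562 ± 5669), Spata6 (10281 ± 1578) and Akap3 (8827 ± 848) came next; their spreads overlapped each other, and that of Ropn1 also reached Akap4. Hook1 had 4025 ± 2244, Sun5 1990 ± 347, Spag6 1655 ± 224 and Fsip2, whose coding transcript of 21116 bases is the longest of the 10, had 1507 ± 393 normalised counts per kilobase. The spreads of these last 4 overlapped.

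The question of the design is how each treatment compares with Control. No gene passed the threshold of 0.05 in any of the 4 comparisons with limma (adjusted p, Benjamini-Hochberg over 17896 genes), so 0% of genes and 0 of 10 members were called in MTX, HMS-I1, AA and TSA against Control. At an unadjusted p under 0.05 there were 98 genes (0.55%) in the MTX comparison, 73 (0.41%) in HMS-I1, 143 (0.80%) in AA and 1027 (5.74%) in TSA. The members among them were 0 of 10 for MTX, HMS-I1 and AA, and 3 of 10 for TSA. The F-test over all 5 groups also called 0 genes (0%). In it 230 genes (1.29%) had an unadjusted p below 0.05, and Sun5 (0.0336) was the 1 member of these. Evenly spread p-values would put a fraction of 0.05 of genes there, and MTX, HMS-I1, AA and the F-test lay below it. The cause was not tested, and 0 calls do not show that levels were equal. The 4 comparisons share the same 3 Control libraries.

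**Figure D1:**
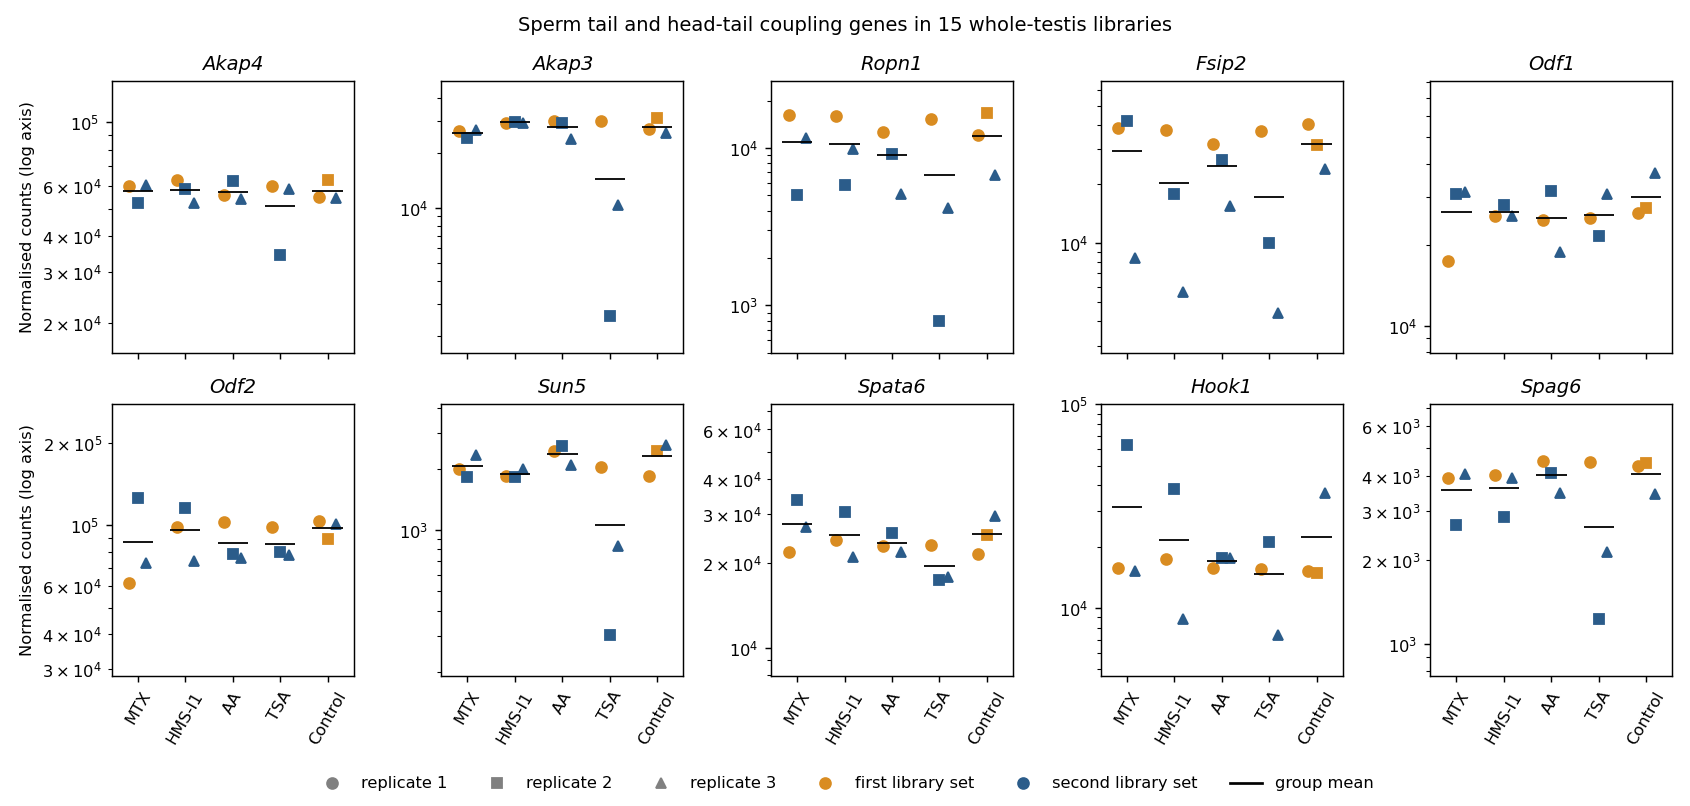
Normalised counts (log axis) of the 10 genes in each library, with the 4 treatments left of Control; symbols give the replicate number, colour the library set and the black line the mean of 3 libraries. TSA replicates 2 and 3 lie below the other libraries for Akap3, Ropn1, Sun5, Spata6 and Spag6. Akap4, Odf1 and Odf2 in TSA replicate 3 lie among the others, while TSA replicate 2 is the lowest library for Akap4.

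Among the fibrous sheath genes, Akap3, the scaffold that forms with AKAP4 the core of the sheath, had the plainest pattern. It had 30023, 2559.7 and 10311 normalised counts in TSA replicates 1, 2 and 3, against 26895, 30847 and 25749 in Control replicates 1, 2 and 3. TSA replicate 1 lay within the Control range, and the other 2 TSA libraries lay below every other library. MTX testes had 26253, 24098 and 26495, HMS-I1 testes 29280.5, 29472 and 29119.9, and AA testes 30031, 29237 and 23892 normalised counts of Akap3. Each of these 3 groups overlapped the Control range. The mean was 14298 ± 14159 in TSA and 27830 ± 2675 in Control (SD, n = 3 each), a log2 difference of -1.58 (SE 0.59), with an unadjusted p of 0.0193 and an adjusted p of 0.848 from limma.

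Akap4, the most abundant protein of the sheath, behaved differently from Akap3 in the same libraries. It had 59827, 34486 and 58278 normalised counts in TSA replicates 1, 2 and 3, against 54924, 62578 and 54537 in Control. TSA replicate 2 was the lowest of the 15 libraries, while TSA replicate 3 lay inside the Control range. The other libraries ran between 52279 and 63033, and the log2 difference for TSA was -0.21 (SE 0.23, limma adjusted p 0.886). Over all 15 libraries the highest value of Akap4 was 1.83 times the lowest, against 12.1 times for Akap3.

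Ropn1 encodes ropporin, a binding partner of AKAP3. Its transcripts had 15304, 790.5 and 4128 normalised counts in TSA replicates 1, 2 and 3, against 12155, 16676 and 6768 in Control. The 2 low TSA libraries were the lowest of the 15. The other treatments also varied: MTX had 16269, 5065 and 11638, HMS-I1 16038, 5801 and 9925, and AA 12692, 9212 and 5117 normalised counts. In each of the 4 treatments replicate 1 was the highest of its 3 libraries, and the first set exceeded the second by 1.46 on the log2 scale, or by 1.02 with TSA replicates 2 and 3 left out. The log2 difference for TSA was -1.59 (SE 0.84, limma adjusted p 0.886), the most negative of the 10.

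Fsip2, a very large fibrous sheath interacting protein, was the least even of the sheath genes outside the TSA group. It had 38494, 41637 and 8426 normalised counts in MTX testes, 37495, 17712 and 5640.2 in HMS-I1, 31994, 26496 and 15462 in AA and 36905, 9943 and 4383 in TSA, against 40336, 31395 and 23751 in Control. Replicate 3 was the lowest library in every group, and the values in MTX, HMS-I1 and TSA lay below all those of replicates 1 and 2. The log2 difference was -1.41 (SE 0.82) for TSA and -1.002 for HMS-I1, the most negative of the members in that comparison. Fsip2 was also the most negative member in MTX (-0.38) and AA (-0.40), with adjusted p-values of 1 in those 3 comparisons (limma).

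Of the outer dense fibre genes, Odf1 and Odf2 did not share the order of libraries seen for Akap3. Odf1, a main structural protein of the fibres, had 25231, 21600.3 and 30805 normalised counts in TSA replicates 1, 2 and 3, against 26289, 27284 and 36806 in Control. Its lowest library was MTX replicate 1 at 17377, so the TSA values lay inside the range of the others. Odf2, a fibre protein that also occurs at the centrosome, had 99085, 79794 and 78215 in TSA, against 104047, 89027 and 101592 normalised counts in Control. Its TSA values lay between the lowest (61867, MTX replicate 1) and the highest library (126474, MTX replicate 2). The log2 differences for TSA were -0.22 (SE 0.28) for Odf1 and -0.20 (SE 0.28) for Odf2, with limma adjusted p-values of 0.886 and 0.889.

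In the head-tail coupling group, Sun5, which anchors the coupling apparatus in the nuclear envelope, followed Akap3. It had 2042, 303 and 830.0 normalised counts in TSA replicates 1, 2 and 3, against 1850.3, 2441 and 2615 in Control. The 2 later TSA replicates were the lowest of the 15 libraries and replicate 1 was within the Control range. MTX testes had 2001, 1814 and 2345, HMS-I1 testes 1841, 1826 and 1996, and AA testes 2455, 2598 and 2078 normalised counts, and each of these groups overlapped the Control range. The mean was 1058 ± 892 in TSA and 2302 ± 401 in Control (SD, n = 3 each), a log2 difference of -1.51 (SE 0.48, unadjusted p 0.00766, limma adjusted p 0.848).

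Spata6, needed to form the connecting piece at the neck, shared the order of libraries but with a small step. It had 23187, 17372 and 17922 normalised counts in TSA, against 21580.5, 25124 and 29355 in Control, and the lowest of the other libraries was HMS-I1 replicate 3 at 21014. Its log2 difference for TSA was -0.38 (SE 0.23, limma adjusted p 0.886). Hook1, a linker between cargo and manchette microtubules, split along other lines. It had 15674, 62839 and 15175 normalised counts in MTX, 17430.1, 38271 and 8874 in HMS-I1, 15748, 17673 and 17653 in AA and 15505, 21081 and 7408 in TSA, against 15198, 14917 and 36501 in Control. The highest libraries were replicate 2 of MTX and HMS-I1 and replicate 3 of Control, all of the second set, while the 6 libraries of the first set lay between 14917 and 17430.1. Hook1 was the member with the highest difference in MTX (0.28), and its log2 difference in TSA was -0.59 (SE 0.63, limma adjusted p 0.886).

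Spag6 encodes an armadillo-repeat protein of the central pair that controls flagellar bending. It had 4487, 1228 and 2125 normalised counts in TSA replicates 1, 2 and 3, against 4330.4, 4436 and 3435 in Control. TSA replicates 2 and 3 were again the lowest of the 15 libraries. MTX testes had 3919.7, 2669.7 and 4040.0, HMS-I1 testes 4022, 2847 and 3929, and AA testes 4511, 4095 and 3471 normalised counts. The log2 difference for TSA was -0.83 (SE 0.37, unadjusted p 0.0434, limma adjusted p 0.871). Its paralogue Spag6l, which shares 2.51% of the 31-base words of Spag6, had 10201, 10453 and 10420.3 in TSA, against 9325, 10217 and 9264 normalised counts in Control. Spag6l thus showed no low TSA library, with a log2 difference of 0.11 (SE 0.17, limma adjusted p 0.895).

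**Figure D2:**
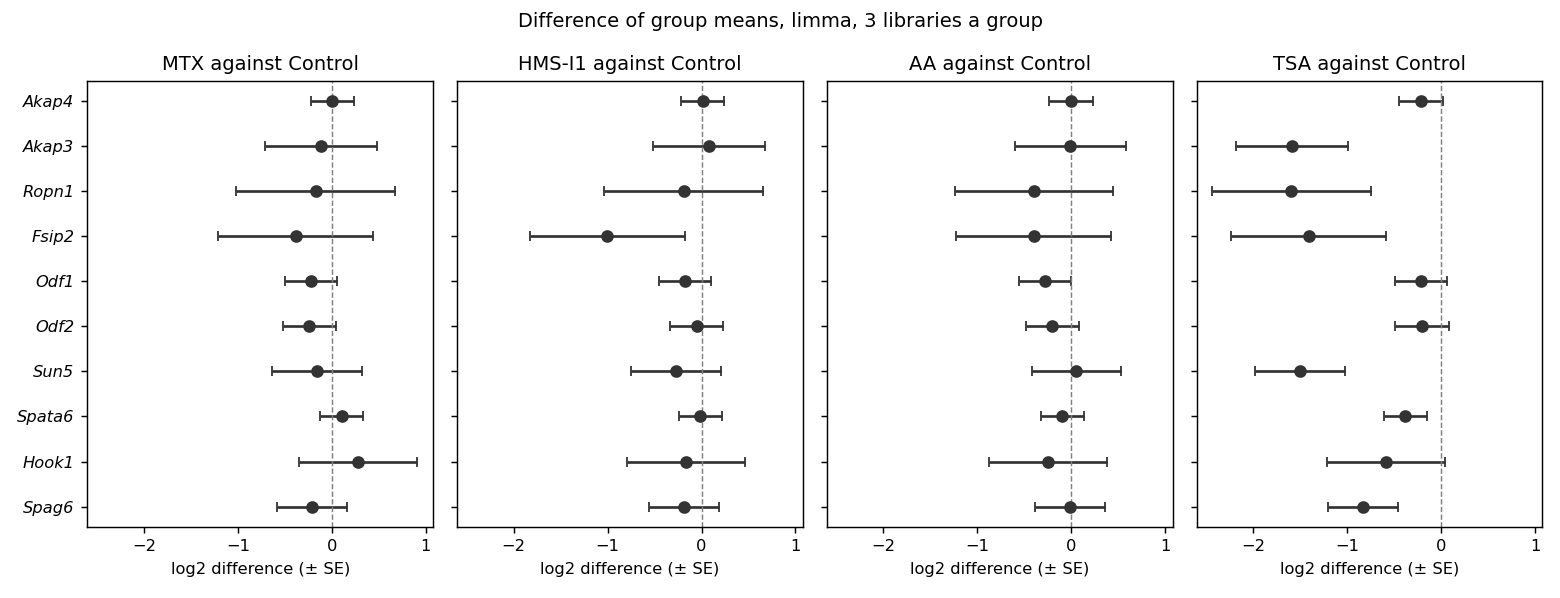
Difference of mean log2(normalised count + 1) between each treatment and Control for the 10 genes, with bars of 1 SE from limma (3 libraries a group). The TSA panel has all 10 points left of 0, from -0.20 for Odf2 to -1.59 for Ropn1, and none passed the threshold.

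Over the 10 members the median log2 difference was -0.16 in MTX, -0.17 in HMS-I1, -0.15 in AA and -0.71 in TSA, each against Control. The medians of all 17896 genes were -0.01, -0.02, -0.02 and 0.01 in the same order of comparisons. The number of members above 0 was 3 of 10 in MTX, 2 in HMS-I1, 1 in AA and 0 in TSA. Of all 17896 genes, 8573, 8573, 8476 and 9042 were above 0 in the same order. The highest member was Akap3 at 0.08 in HMS-I1 and Sun5 at 0.06 in AA. With the library set as a term, the member medians were 0.057 in MTX, -0.046 in HMS-I1, 0.046 in AA and -0.70 in TSA. The small negative medians in MTX and AA thus did not hold under that term. Within the first set, TSA replicate 1 against Control replicates 1 and 2 gave a median of 0.038, with members between -0.09 and 0.10. Within the second set, TSA replicates 2 and 3 against Control replicate 3 gave a median of -1.32, with Sun5 at -2.38, Akap3 at -2.33, Ropn1 at -1.90, Fsip2 at -1.85, Hook1 at -1.55, Spag6 at -1.09, Spata6 at -0.73, Odf1 at -0.51, Odf2 at -0.36 and Akap4 at -0.28. Those within-set differences have 1 library in an arm and are given without a test.

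The calls in TSA depended on TSA replicate 1 and on how libraries were weighted. Without TSA replicate 1, limma called 992 of the 17896 genes in TSA against Control, 991 of them lower (5.54%), and 3 of the 10 members were lower. Because the members were chosen with earlier results known, 3 of 10 beside 5.54% is a description. Akap3 was lower by a log2 difference of -2.43 (SE 0.42, adjusted p 0.00616), Sun5 by -2.18 (SE 0.34, adjusted p 0.00490) and Spag6 by -1.32 (SE 0.29, adjusted p 0.0194). Ropn1 (-2.62, SE 0.72, adjusted p 0.0544) and Fsip2 (-2.24, SE 0.79, adjusted p 0.149) did not pass. With the library set as a further term, a setting added after the data were seen, 1007 genes were lower (5.63%), and the same 3 members were called, with Akap3 at -2.37, Sun5 at -2.23 and Spag6 at -1.13. Leaving out any other single TSA or Control library called at most 1 gene and 0 members. With all 15 libraries and array quality weights, which give each library its own weight, 2726 genes (15.2%) and 5 members (Akap3, Sun5, Spag6, Ropn1 and Fsip2) were lower. TSA replicate 1 had the lowest weight (0.23) and AA replicate 2 the highest (38.8). This fit is therefore not separate evidence from the fit without TSA replicate 1.

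The order of the libraries was also counted. Both TSA replicates 2 and 3 lay below each of the other 13 libraries for 5 of the 10 members (Akap3, Ropn1, Sun5, Spata6 and Spag6), against 1963 of 17896 genes (11.0%). Set against the 7 other libraries of the second set alone, the count was again 5 of 10, with 2161 genes (12.1%). These libraries were singled out after their values had been seen. The members were also chosen with earlier results of these data known, so the counts are a description. Relative to the median of those 7 libraries, Akap3 stood at 9.66% in TSA replicate 2 and 38.9% in replicate 3, Ropn1 at 11.7% and 61.0%, Sun5 at 14.6% and 39.9%, and Spag6 at 35.4% and 61.2%. Akap4 stood at 63.2% and 107%, and Odf2 at 101% and 99.1%. Hook1 and Fsip2 stood lower in TSA replicate 3 than in TSA replicate 2, at 119% and 41.9% for Hook1 and 56.1% and 24.7% for Fsip2.

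**Figure D3:**
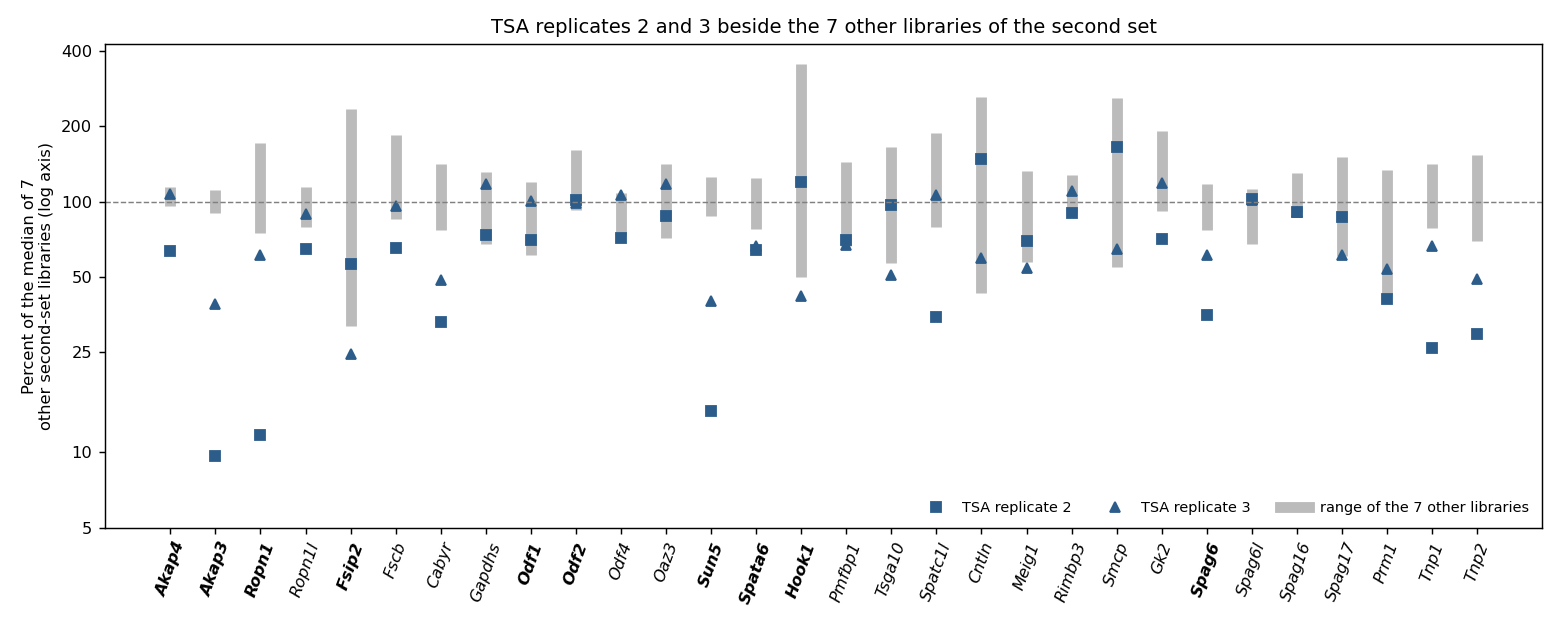
Level of each gene in TSA replicate 2 (squares) and replicate 3 (triangles) as a percent of the median of the 7 other second-set libraries (log axis), with grey bars for the range of those 7; members are in bold. The members Akap3, Ropn1, Sun5, Spata6 and Spag6 lie below their bars in both TSA libraries, as do Cabyr, Tnp1 and Tnp2. Odf2 and Spag6l lie within theirs.

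The other genes of the tail and neck were read from 6 lists. None of the 15 fibrous sheath genes, 14 outer dense fibre genes, 20 head-tail coupling genes, 20 manchette genes, 18 genes of the mitochondrial sheath or 13 central pair partners passed the threshold in TSA against Control with limma. Their median log2 differences were -0.56, -0.31, -0.42, -0.21, -0.28 and -0.29 in that order. In the fibrous sheath list, Cabyr, a calcium-binding sheath protein, stood at 33.0% and 48.6% of the second-set median in TSA replicates 2 and 3. Fscb, a sheath protein that binds CABYR, stood at 65.5% and 96.4%, Ropn1l, a relative of ropporin, at 64.9% and 89.1%, and Gapdhs, the sperm form of a glycolytic enzyme, at 73.8% and 118%. Among the dense fibre genes, Odf4 stood at 71.5% and 106% and Oaz3, a haploid germ cell antizyme, at 87.2% and 118%. Of these 6 genes, Cabyr was the one that lay below the 7 other second-set libraries in both TSA libraries. Over the whole lists, both TSA libraries lay below the other 13 for 6 of 15 fibrous sheath, 6 of 14 dense fibre, 5 of 20 coupling, 2 of 20 manchette and 5 of 18 mitochondrial sheath genes and for 1 of 13 central pair partners, against 11.0% of all genes and 5 of 10 members.

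At the neck, Spatc1l stood at 34.6% and 106%, Pmfbp1, a partner of SUN5, at 70.5% and 67.2%, Tsga10 at 97.1% and 50.8% and Cntln at 148% and 59.8% of the second-set median in TSA replicates 2 and 3. For the manchette genes, Meig1 stood at 69.7% and 54.2% and Rimbp3, a binding partner of HOOK1, at 90.3% and 110%. The mitochondrial sheath genes Smcp (166% and 64.8%) and Gk2 (71.0% and 118%) and the central pair genes Spag16 (91.0% and 91.2%) and Spag17 (87.0% and 61.5%) were also mixed. Pmfbp1 in TSA replicates 2 and 3 (10167 and 9688 normalised counts) lay within the range of the 7 other second-set libraries (9570 to 20831). Meig1 lay within that range in TSA replicate 2 (46116, against 37960 to 87318) and below it in TSA replicate 3 (35841). Without TSA replicate 1, limma called lower 2 of 15 fibrous sheath genes (Tssk4 and Asb17), 5 of 14 dense fibre genes (Odf3, Odf3b, Odf3l1, Spag4 and Tssk4) and 5 of 20 coupling genes (Actl7a, Dnajb13, Prss37, Sun3 and Cep112). The same fit called lower 2 of 20 manchette genes (Clip1 and Ttll9), 3 of 18 mitochondrial sheath genes (Gykl1, Armc12 and Sept4) and 0 of 13 central pair partners, against 5.54% of all genes.

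Markers of spermatids, in which the tail is built, were also low as a group in TSA replicates 2 and 3. Not every member was low in both libraries. Akap4, Odf1 and Odf2 stood at 63.2%, 70.2% and 101% of the second-set median in TSA replicate 2. In TSA replicate 3 these members stood at 107%, 100% and 99.1%. The 21 spermatid genes had a mean log2 level of 11.37 in TSA replicate 2 and 12.21 in TSA replicate 3, and between 12.63 and 13.51 in the other 13 libraries. Their summed level was between 187688 and 827548 normalised counts in TSA testes and between 442219 and 880989 in Control testes. Both TSA libraries lay below the other 13 for 11 of the 21 spermatid genes, against 11.0% of all genes. Without TSA replicate 1 limma called 9 of the 21 lower, against 5.54% of all genes. Tnp1 and Tnp2, transition proteins that replace histones before protamines, stood at 26.1% and 66.8% and at 29.5% and 49.3% of the second-set median, and Prm1 at 40.7% and 53.6%. The 15 spermatocyte genes stood at 12.93 and 12.47 in TSA replicates 2 and 3, against 12.49 to 13.59 in the other 13. The 11 Sertoli cell genes stood at 10.27 and 10.47, against 8.88 to 10.22 in the other 13, so both TSA libraries were the highest for this list. The first set stood at 8.88 to 9.16 and the 7 other second-set libraries at 9.49 to 10.22. Both TSA libraries lay above the other 13 for 3 of the 11 genes. Leydig cell genes (12.17 and 12.35, against 11.01 to 12.28) and spermatogonial genes (9.54 and 9.58, against 8.79 to 9.54) were also at the upper end, and adipocyte genes (4.48 and 3.98, against 4.43 to 8.64) at the lower end. Macrophage genes (9.71 and 8.89, against 8.23 to 9.96) and peritubular myoid and vessel genes (9.34 and 9.47, against 7.66 to 9.59) lay within the range. None of the spermatocyte or Sertoli cell genes passed without TSA replicate 1. With array quality weights, limma called 14 of 21 spermatid genes and 1 of 15 spermatocyte genes lower, against 2726 of all 17896 genes (15.2%). It called 2 of 15 spermatocyte, 5 of 11 Sertoli cell and 4 of 8 Leydig cell genes higher, against 1508 of all 17896. AA replicate 2 had a weight of 38.8 in this fit, so these calls are a description. The part of these markers in the member values was not tested, and in whole testes fewer spermatids and less RNA per spermatid cannot be told apart.

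**Figure D4:**
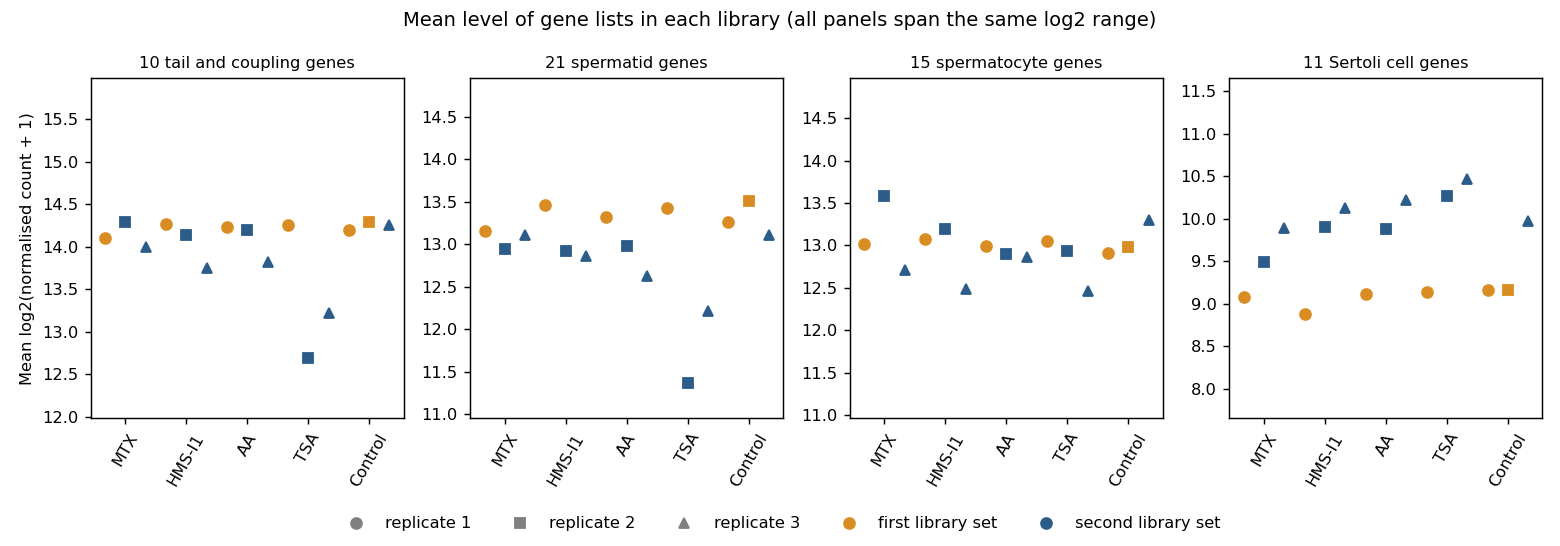
Mean log2(normalised count + 1) of 4 gene lists in each library; symbols give the replicate number, colour the library set, and all panels span the same log2 range. TSA replicates 2 and 3 are the lowest libraries for the 10 members (12.69 and 13.22) and the 21 spermatid genes (11.37 and 12.21), and the highest for the 11 Sertoli cell genes.

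Part of the spread followed the library sets. The first set exceeded all 9 libraries of the second by 1.46 for Ropn1, 1.41 for Fsip2, 0.64 for Akap3, 0.55 for Spag6 and 0.42 for Sun5 on the log2 scale. Against the 7 libraries of the second set that are not TSA, a comparison added after the data were seen, the differences were 1.02 for Ropn1, 1.12 for Fsip2, 0.11 for Akap3, 0.31 for Spag6 and -0.047 for Sun5. TSA replicates 2 and 3 thus carried most of the set difference of Akap3 and all of that of Sun5. For the other 5 members, the first set minus these 7 libraries gave 0.075 (Akap4), 0.017 (Odf2), -0.21 (Spata6), -0.24 (Odf1) and -0.56 (Hook1). The first set holds 2 of the 3 Control libraries and 1 of 3 in each treatment, so set and group are partly confounded. The spread between libraries of a group, as residual SD on the log2 scale, was 1.16 for Ropn1, 1.13 for Fsip2, 0.85 for Hook1 and 0.80 for Akap3. It was 0.64 for Sun5, 0.48 for Spag6, 0.32 for Odf1 and Odf2, 0.24 for Spata6 and 0.23 for Akap4. Exons of Odf2, Spag6 and Hook1 overlap annotated genes on the opposite strand by 97, 283 and 317 bases, and reads of the 2 strands cannot be told apart there, since no source used here states whether counting was stranded.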

How the data were processed

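RNA of whole mouse testes was sequenced in 15 libraries. The authors deposited 1 table whose unit is a signal, counts per gene after normalisation. The submitters' processing notes list DESeq2 1.34.0, Salmon 0.12.0, FastQC 0.11.9 and, as the build, GRCm39. Between 4.71% and 5.98% of values fell within 0.01 of a whole multiple of a library step, so whole reads were not recovered and the depth is unknown. Column sums were 2.75e+07 to 4.06e+07. Symbols were matched for 35825 of 36118 identifiers with a GRCm38 annotation, which also gave transcripts and lengths. Libraries were grouped by title.

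Values were taken as log2(normalised count + 1), which understates changes of low genes, for genes with a mean of at least 10. A model of 5 group means was fitted with limma 3.58.1 (eBayes with trend, two-sided) in R 4.3.3. p-values were adjusted by Benjamini-Hochberg over 17896 genes, with a threshold of 0.05. The script was tested on simulated data. The alternatives were other pseudocounts, filters and scalings, a library set term, a replicate block, quality weights, fits of 2 groups and leaving out each library. The members and lists were chosen with earlier results of these data known. The genes named are the members, Spag6l, 16 listed tail and neck genes, Prm1, Tnp1, Tnp2, listed genes past the threshold and the extreme members of each comparison. The library sets are split at the midpoint of the mean log2 level of the histone genes. The promoter motif was chosen after the windows had been read.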

Additional observations from a re-analysis of the deposited data

How the results depend on the processing

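Of 690 alternative fold changes of the members from fits with a test, 81 had the opposite sign, 0 of them past the threshold. Of 80 within-set differences, which have no test, 27 had the opposite sign. The first set held 3 of these in MTX, 5 in HMS-I1, 4 in AA and 7 in TSA, and the second held 2 in MTX, 1 in HMS-I1, 5 in AA and 0 in TSA. No member passed in MTX, HMS-I1 or AA under any alternative run. The cause of each change below was not tested. With array quality weights, limma called 6645 of the 17896 genes in AA and 4234 in TSA (5 of 10 members: Akap3, Spag6, Sun5, Ropn1 and Fsip2). The F-test with these weights called 5640 of the 17896 genes and 4 of 10 members. Such calls were thus common over all genes too. AA replicate 2 then had a weight of 38.8, against 0.23 (TSA replicate 1) to 2.92 (Control replicate 1) for the others. Fits of 2 groups called 1 gene in MTX, 2 in AA and 1 in TSA. Leaving out 1 library called 0 to 1 genes in MTX, HMS-I1 and AA, 0 to 992 genes and 0 to 3 members in TSA, and 0 to 246 genes and 0 to 2 members in the F-test. The 992 and 246 were without TSA replicate 1. Without it and with the library set as a term, added later, 1009 genes and 3 members were called in TSA. Within the first set the member median in TSA was 0.038, and the 7 of opposite sign there were Akap3 (0.060), Akap4 (0.029), Odf2 (0.042), Spag6 (0.034), Ropn1 (0.10), Fsip2 (0.053) and Hook1 (0.042). Equal column sums and quantile normalisation moved the median of all genes in TSA to 0.11 and 0.12, and that of the members to -0.60 and -0.57. Depth is unknown, so counting error cannot be given.

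The main fit did not take replicate numbers to pair the libraries, although libraries of the same number resembled each other. Of 30 same-numbered pairs, 26 correlated over 0.1 (r from -0.58 to 0.76), and 11 of 15 libraries correlated best with their own number. With the replicate block, 0 genes were called in each comparison, and Akap3 in TSA was -1.58 with an adjusted p of 0.249. The block lowered the smallest limma adjusted p over all genes in TSA from 0.848 to 0.247. It lowered the SE of Fsip2 in TSA from 0.82 to 0.44, so the SEs and p-values of the main fit depend on leaving the block out. Over all fits of TSA the adjusted p ran from 0.00616 to 1 for Akap3, 0.00490 to 1 for Sun5, 0.0107 to 1 for Spag6, 0.0262 to 1 for Ropn1 and 0.0164 to 1 for Fsip2.

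In the fits with a test, the log2 differences of opposite sign were as follows. Quality weights gave 0.027 for Sun5 in MTX, then -0.0020 for Akap4, 0.29 for Hook1 and 0.14 for Spata6 in HMS-I1, then 0.058 for Akap3, 0.12 for Akap4, 0.11 for Hook1, 0.18 for Odf1 and 0.14 for Spata6 in AA, then 0.032 for Odf1 in TSA. Equal column sums gave -0.055 for Akap4 in MTX, then 0.0041 for Spata6 in HMS-I1, then 0.11 for Akap3, 0.11 for Akap4, 0.10 for Spag6 and 0.017 for Spata6 in AA. The library set with the replicate block gave 0.19 for Akap3, -0.33 for Hook1, 0.60 for Ropn1, 0.048 for Spag6 and 0.078 for Sun5 in MTX, then 0.58 for Ropn1 and 0.078 for Spag6 in HMS-I1, then 0.30 for Akap3, 0.13 for Akap4, 0.37 for Ropn1 and 0.25 for Spag6 in AA. The library set alone gave 0.080 for Akap3, 0.060 for Fsip2 and 0.31 for Ropn1 in MTX, then 0.29 for Ropn1 in HMS-I1, then 0.19 for Akap3, 0.047 for Akap4, 0.045 for Fsip2, 0.081 for Ropn1 and 0.16 for Spag6 in AA. Quantile normalisation gave -0.027 for Akap4 in MTX, then 0.035 for Odf2 and 0.012 for Spata6 in HMS-I1, then 0.18 for Akap3, 0.17 for Akap4, 0.015 for Hook1, 0.084 for Odf2, 0.091 for Spag6 and 0.12 for Spata6 in AA, then 0.034 for Akap4 in TSA. Over the fits that left out 1 library, the range in MTX was -0.031 to 0.072 for Akap4, -0.79 to 0.36 for Fsip2, -0.39 to 0.71 for Hook1, -0.37 to 0.059 for Odf1, -0.53 to 0.31 for Ropn1 and -0.049 to 0.26 for Spata6. In HMS-I1 it was -0.051 to 0.084 for Akap4, -0.70 to 0.35 for Hook1, -0.20 to 0.13 for Odf2, -0.55 to 0.18 for Ropn1 and -0.16 to 0.11 for Spata6. In AA it was -0.070 to 0.095 for Akap3, -0.066 to 0.062 for Akap4, -0.47 to 0.18 for Hook1, -0.13 to 0.089 for Spag6, -0.21 to 0.014 for Spata6 and -0.094 to 0.16 for Sun5. In TSA it was -0.35 to 0.045 for Akap4.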
